A study of Mus musculus with 4 samples.

Results

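Far intergenic summits are the NKX2.2 peak summits that lie in the long gaps between protein-coding genes of the mouse genome. They were chosen by position alone: outside every protein-coding gene, over 1 kb from the boundary of any annotated gene, and over 50 kb from the start or end of the nearest protein-coding gene. The rule found 848 summits among the 7380 on the 19 autosomes and the X chromosome, a share of 11.5% (95% Wilson interval 10.8% to 12.2%, counting error only). The whole list holds 7384. NKX2.2-bound DNA was isolated by chromatin immunoprecipitation (ChIP) and sequenced. The cells were wild-type alphaTC6, a mouse line derived from glucagon-secreting cells of the pancreas, with 2 ChIP samples and 2 samples of input DNA that differ only in this step in the labels. A single list of summits covers the series, and how the samples were combined in it is not given in the sources used here. It holds no value per sample and no cell type markers, so the identity of the cells cannot be checked from it, depth is unknown, no replicate error can be given and the results describe this list without a test.

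NKX2.2 is a homeodomain transcription factor needed for the formation and identity of pancreatic islet endocrine cells. Transcription factors bind promoters and also distal elements such as enhancers, which can act on a gene over long stretches of DNA and pass over nearer genes. Gene deserts, long gaps without protein-coding genes, often flank genes of developmental regulators and can hold such elements. A summit in a gap does not show which gene it acts on, so flanking genes are named below as landmarks. A gap here is the stretch between 2 neighbouring protein-coding gene bodies, and its far territory is the part that fulfils the rule on position.

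Sequence under the far intergenic summits was not used here. The nearest sequence that the data bear on is that of promoters in RefSeq's GRCm38.p6 table. Of the 40 genes that flank the 10 highest-scoring members or the gaps with most members, 34 matched the table, and 5 of these, Dhx35, Foxa2, Hdac4, Irx2 and Myt1l, had a summit in a window of 250 bases before an annotated start. These summits lie in or near genes and are not members. Over the whole table, 1335 of 32585 windows held a summit. That count is per window, and a gene can have several, so it gives no matched share for the 5 genes. At Irx2, Myt1l and Hdac4 the gene's start side faces the gap, and those windows are printed 5′ to 3′, with capitals marking the 21 bases centred on the summit. In each of the 3 the annotated start is an internal one, so the summit lies inside the gene body. At Irx2 and Hdac4 it is over 1 kb from the edge toward the gap. At Myt1l the body begins at 29527590 and the summit is at 29528248, so it is within 1 kb of that edge. The windows show sequence that NKX2.2 peaks cover at genes next to a gap. Irx2 (chr13:72628570-72628819, plus strand) had its summit 91 bases before the start with a score of 19.7, Myt1l (chr12:29528134-29528383, plus strand) 136 bases before it with 44.9, and Hdac4 (chr1:92180342-92180591, minus strand) 239 bases before it with 29.6. The last window belongs to an internal start of the noncoding gene Gm36543 (chr10:25708266-25708515, minus strand). A far intergenic summit with a score of 305, at 25708573, lies inside this gene, 5.698 kb from its nearer boundary. It is 308 bases before the internal start and outside the window, which therefore has no capitals.
Irx2: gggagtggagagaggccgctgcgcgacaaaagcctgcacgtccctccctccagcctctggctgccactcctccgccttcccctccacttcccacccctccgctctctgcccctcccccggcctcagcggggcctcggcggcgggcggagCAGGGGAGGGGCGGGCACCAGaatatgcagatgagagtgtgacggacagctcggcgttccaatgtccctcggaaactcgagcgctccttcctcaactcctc
Myt1l: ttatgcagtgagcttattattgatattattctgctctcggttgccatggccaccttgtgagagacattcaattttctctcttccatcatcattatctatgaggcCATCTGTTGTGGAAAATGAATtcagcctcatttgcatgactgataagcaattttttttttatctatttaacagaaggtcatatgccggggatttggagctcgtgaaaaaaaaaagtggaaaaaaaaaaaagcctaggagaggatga
Hdac4: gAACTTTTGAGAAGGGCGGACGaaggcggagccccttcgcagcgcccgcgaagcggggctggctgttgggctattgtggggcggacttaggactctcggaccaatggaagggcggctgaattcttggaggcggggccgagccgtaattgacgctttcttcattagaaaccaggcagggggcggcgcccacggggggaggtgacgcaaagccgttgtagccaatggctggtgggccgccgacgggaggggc
Gm36543: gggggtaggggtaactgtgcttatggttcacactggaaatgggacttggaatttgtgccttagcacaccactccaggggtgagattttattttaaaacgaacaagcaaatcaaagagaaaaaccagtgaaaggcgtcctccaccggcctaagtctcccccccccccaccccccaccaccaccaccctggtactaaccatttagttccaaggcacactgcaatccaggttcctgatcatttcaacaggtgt

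Neither NKX2-type word searched, TNAAGTG or TNAAGTA on either strand (N is any base), occurs in these windows. TNAAGTG was found in 10.1% of all 32585 promoter windows of this length and in 7.79% of the 1335 that hold a summit (95% Wilson interval 6.47% to 9.35%), and TNAAGTA in 7.91% and 3.30%. The Myt1l window holds GTTGCCA, a word found in binding sites of RFX factors, starting 211 bases before the start. That word was in 3.69% of all windows and 5.32% of those with a summit (4.24% to 6.66%). The same window holds AGATAA at 2 places, a word that was in 3.67% of windows with a summit and 10.02% of all windows. It also holds CANNTG, the E-box word, at 3 places, and that word was in 54.4% of windows with a summit and 66.3% of all windows. The E-box word is also in the Irx2 window, from 74 bases before the start, and in the Gm36543 window, from 7 bases before it. The median GC content was 52.4% over all windows and 61.2% over windows with a summit, against 68.4% at Irx2, 65.2% at Hdac4 and 36.8% in the Myt1l window printed. A further Myt1l window with a summit, before the start at 29533385, had a score of 6.69 and a GC content of 59.2%. A match or its absence describes only the letters of the window.

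Far intergenic territory was thinly occupied. It made up 35.4% of the annotated span of the chromosomes (925 of 2612 Mb) and held 11.5% of the summits. Its density was 0.917 summits per Mb, against 2.196 per Mb in near intergenic territory (by the same rule, but at most 50 kb from a protein-coding gene; 1230 summits) and 2.83 per Mb over the whole span. Relative to the whole span, the far density was thus 0.325 and the near density 0.777. Territory was counted from gene positions, so unsequenced and unmappable stretches are still in it.

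Density fell step by step with distance from genes. Between 50 and 100 kb from the nearest protein-coding gene, 353 members gave 1.81 per Mb, close to the 1.95 per Mb at 10 to 50 kb. At 100 to 200 kb, 264 members gave 1.23 per Mb. At 200 to 500 kb there were 178, or 0.635 per Mb. Beyond that, 41 members at 500 to 1000 kb gave 0.265 per Mb and 12 members over 1000 kb gave 0.150 per Mb. The median member lay 118 kb from the nearest protein-coding gene, with the middle 50% at 75.01 to 217 kb. At the threshold of 50 kb, the 3 members just inside, at 50.02 to 50.1 kb, scored 14.1, 52.7 and 16.5, and the 3 summits just outside, at 49.6 to 49.9 kb, scored 14.2, 12.7 and 12.3.

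**Figure D1:**
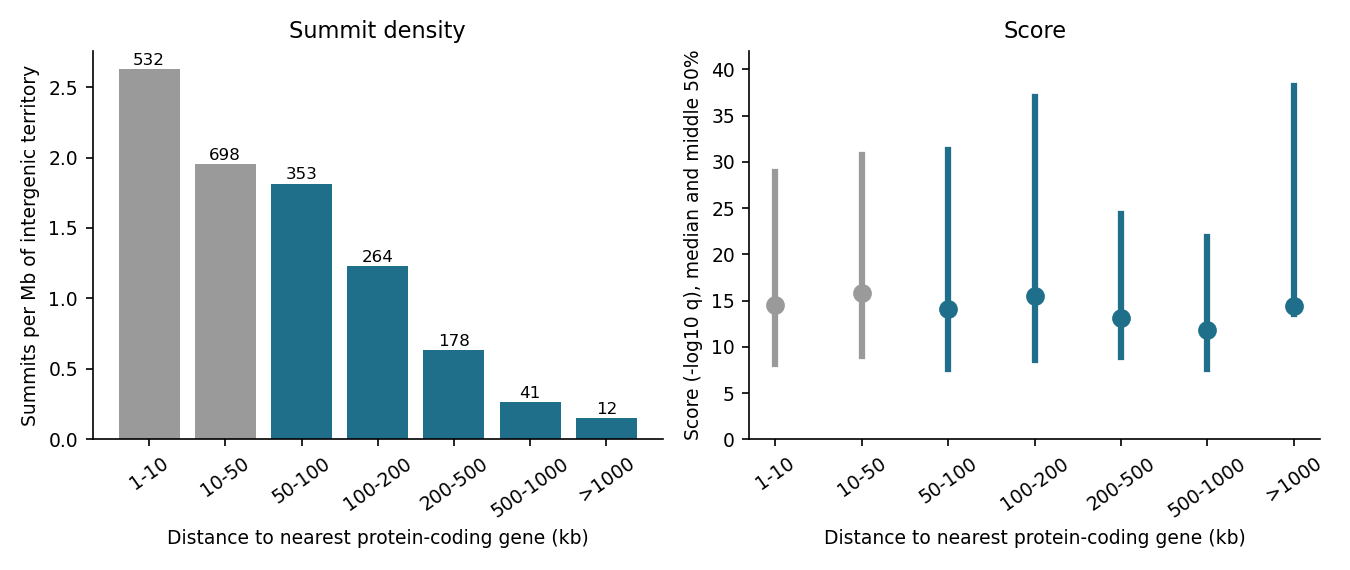
Left, summits per Mb of intergenic territory by distance to the nearest protein-coding gene, with the number of summits above each bar. Right, the median score (point) and middle 50% (line). Grey marks near and blue far intergenic summits; density falls from 1.81 to 0.150 per Mb across the blue bars while median scores stay between 11.8 and 15.5.

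The scores of far and near intergenic summits overlapped over most of their range. A score is the authors' own value for a peak, taken here as a −log10 q-value. The median was 14.4 (middle 50% 7.92 to 31.3) for far and 15.02 (8.64 to 29.6) for near intergenic summits, and 13.5 (7.85 to 26.7) for the 5302 summits inside or within 1 kb of genes. The far median was below the near median on 13 of 20 chromosomes, above it on 6 and equal on chromosome 3. With a score minimum of 10 the difference of -0.597 turned to 0.00852, so its sign depended on that minimum. At the upper end, 54 members, 6.37% (95% Wilson interval 4.91% to 8.22%), scored at least 100. The share was 6.91% (5.62% to 8.47%) among near intergenic summits and 4.45% (3.93% to 5.04%) in or at genes. With distance, bin medians changed little. They ran from 11.8 at 500 to 1000 kb to 15.5 at 100 to 200 kb, and the 12 members over 1000 kb from any protein-coding gene had a median of 14.4. The upper end changed more. The share scoring at least 100 was 7.37% at 50 to 100 kb, 6.82% at 100 to 200 kb, 3.93% at 200 to 500 kb and 2.44% (1 of 41) at 500 to 1000 kb, and 2 of the 12 beyond 1000 kb reached it. The upper quartile was 31.3, 37.0, 24.4 and 21.9 in the first 4 of these bins, and 38.2 for the 12 members beyond 1000 kb. Of the 2 there that scored at least 100, 1 is the summit of 409.6 between Lrrc4c and Iftap. It lies in a commonly masked stretch, as described below.

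**Figure D2:**
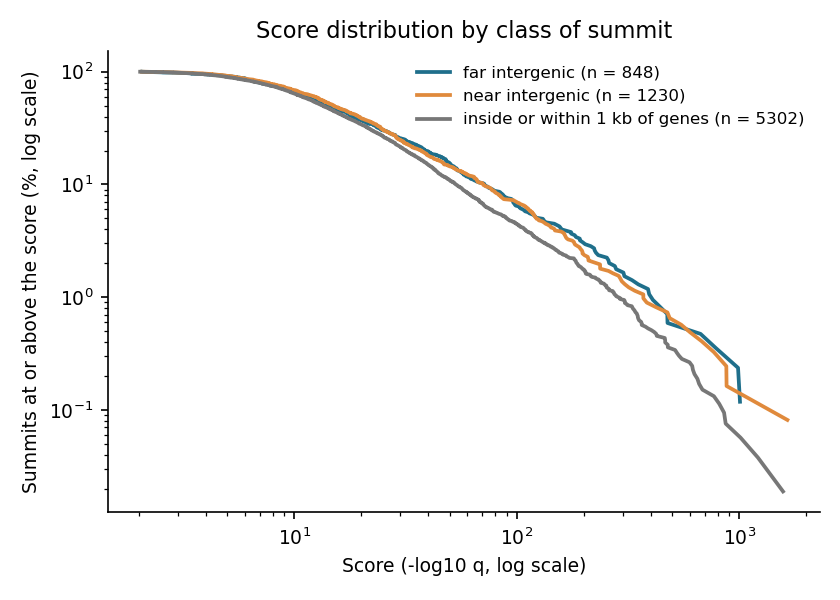
Percentage of summits (log axis) at or above each score (log axis) for far intergenic, near intergenic and gene summits. The far and near curves overlap and lie above the gene curve at high scores, with 6.37%, 6.91% and 4.45% of summits at a score of at least 100.

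The 10 strongest members are given with the genes that flank them. The highest score of the class, 1009, was at position 72448719 of chromosome 13 (all positions GRCm38). It lay between the Iroquois homeobox genes Irx1, 485 kb away, and Irx2, 176 kb away, which encode transcription factors of developing and mature alpha cells among other tissues. Second was a summit of score 988 at 111099381 of chromosome 13, between Plk2, a polo-like kinase gene, and Actbl2, an actin-like gene, at 699 and 156 kb. Next was 4397788 of chromosome 6 with 785, inside the long noncoding RNA gene Gm46948, 108 kb from the collagen gene Col1a2 and 311 kb from Bet1, which encodes a Golgi SNARE. These 3 members ranked 5, 6 and 12 in the whole list.

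The next 4 members scored 439 to 671. A score of 671 was found at 100128070 of chromosome 6, 100.5 kb from Rybp, which encodes a Polycomb-associated protein. Hdac4, a class IIa histone deacetylase gene, had a summit of 476 at 92272067 of chromosome 1, 76.4 kb away. At 8713469 of chromosome 2, a summit of 475 lay 1144 kb from Gata3, a zinc-finger transcription factor gene, and 1317 kb from Celf2, which encodes an RNA-binding protein. Only 2 other members lay farther from a protein-coding gene. On the X chromosome a summit of 439 at 99540185 lay 68.9 kb from the ubiquitin ligase gene Pja1, with Tmem28 on its other side.

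The remaining 3 of the top 10 included an isolated summit. At 98667149 of chromosome 2, in the 3929 kb gap between Lrrc4c, a synaptic adhesion gene, and Iftap, a summit of 409.6 was the only one, and the nearest other summit was 3075 kb away. This stretch of chromosome 2 is among those that mouse ChIP-seq work commonly masks for excess signal over repeats. No list of masked regions was used here, and its part in the score was not tested. A summit of 394 at 159491285 of chromosome 2 lay 633 kb from the helicase gene Dhx35 and 820 kb from Gm826. The tenth, 389 at 50721567 of chromosome 6, lay 67.1 kb from Npvf, which encodes a neuropeptide precursor, and 501 kb from Gm38821.

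A few members lay over 1000 kb from any protein-coding gene. The farthest, at 47432839 of chromosome 10 between Hace1, a ubiquitin ligase gene, and the glutamate receptor gene Grik2, was 1661 kb from Grik2, the nearer protein-coding gene, and had a score of 14.3. Next came 60600176 of chromosome 5 between the protocadherin gene Pcdh7 and G6pd2 (1209 kb from G6pd2, score 10.5), and then the Gata3 summit above. After it came 16589533 of chromosome 10 beside Cited2, a transcriptional co-regulator gene (1134 kb from it, score 14.5), and 8729489 of chromosome 2 (1128 kb, score 13.6), which is 16.0 kb from the Gata3 summit. All 5 were much nearer to an annotated gene of any kind, at 74.1 to 164 kb. Apart from the Gata3 summit, these scores lie near the class median.

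The members fell in few of the available gaps. Of 2766 gaps with far territory, 463 (16.7%) held at least 1 member. In 266 of these gaps it was a single one, 117 held 2, and 25 held 5 or more. These 25 gaps together held 169 members, 19.9% of the class. The share of gaps with a member grew with gap length, from 6.02% of gaps of 100 to 200 kb (95% Wilson interval 4.82% to 7.49%) to 28.9% at 500 to 1000 kb (24.5% to 33.7%) and 37.3% at 2000 kb or more (27.7% to 48.1%). Per Mb of far territory the order was the opposite, 2.34, 1.04 and 0.224 members. Gaps of at least 500 kb held 75.5% of the far territory in gaps and 47.3% of the members.

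The longest deserts held few members. In the 20 longest gaps, 72.9 Mb of far territory held 15 members, or 0.206 per Mb, and 11 of these gaps held none. Among those were the gaps between the protocadherin genes Pcdh20 and Pcdh9 (4542 kb, chromosome 14), between Olfm4 and Pcdh17 (4420.42 kb, chromosome 14), and between the teneurin gene Tenm3 and Aga (3989 kb, chromosome 8). Hace1 and Grik2, 3381 kb apart, flanked 5 members with scores of 6.63 to 24.5. Chromosome 14 held few summits of any class (0.610 per Mb over its span). In the 3 gaps named as holding no member, no summit of any class was called. The gap between Celf4 and Pik3c3 (4511 kb, chromosome 18) also had no member, but it held 1 summit outside the class.

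**Figure D3:**
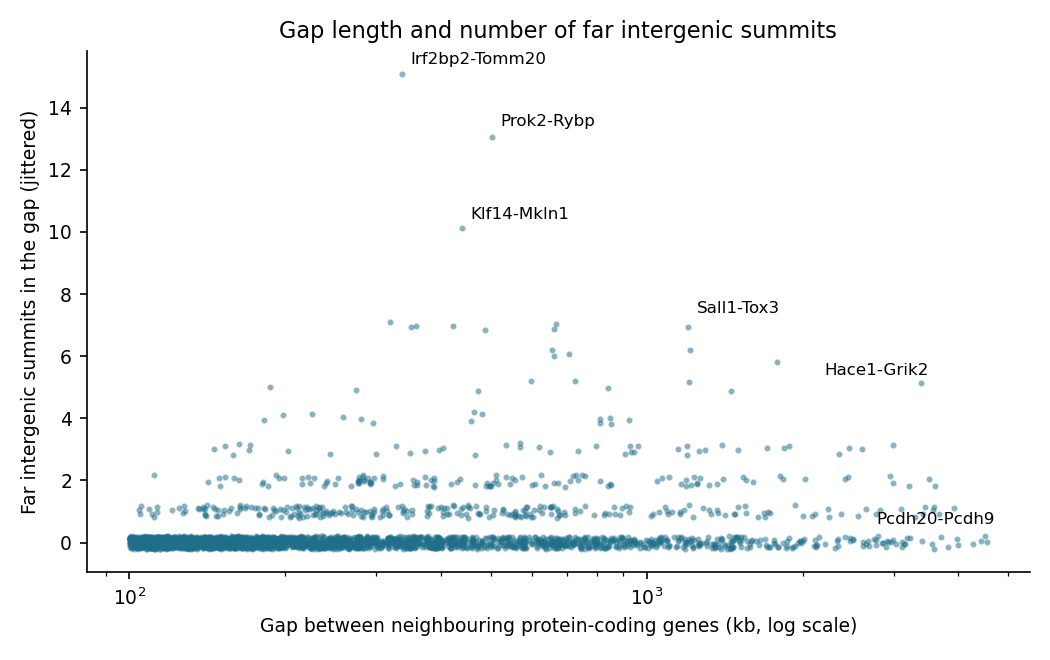
Each point is 1 of 2766 gaps with far territory, placed by its length (log axis) and by the number of far intergenic summits in it (jittered vertically). The gaps with 15, 13 and 10 members are 337 to 502 kb long, and most gaps hold none.

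The gaps with most members were of moderate length. The 11 with 7 or more held 94 members, 11.1% of the class, in 0.483% of the far territory in gaps. They were picked by this count, so a share of members above that of territory follows from the choice. First was the 337 kb between Irf2bp2, a transcriptional corepressor gene, and Tomm20, a mitochondrial import receptor gene, on chromosome 8, with 15 members. Their scores ran from 2.32 to 86.6 with a median of 10.2, so over 50% of them were below the class median of 14.4. In this gap 8 members lay inside the long noncoding RNA gene Gm31718, and 7 of those, from 126824763 to 126844801, formed the longest run in which each member is within 10 kb of the next. A second run of 4 spanned 5.53 kb from 126660975.

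The 502 kb between Prok2, which encodes a secreted prokineticin, and Rybp on chromosome 6 had 13 members with a median score of 23.8. They included the summit of 671 named above and a second of 258 at 100011671, while the lowest was 5.79. Next was the 440 kb between Klf14, a Krüppel-like factor gene, and Mkln1 on chromosome 6, with 10 members. The highest there, 352 at 31324958, stood far above the others, the next being 55.8 and the median 9.65. All 10 lay inside 2 long noncoding RNA genes, 4 in Lncpint and 6 in 2210408F21Rik.

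**Figure D4:**
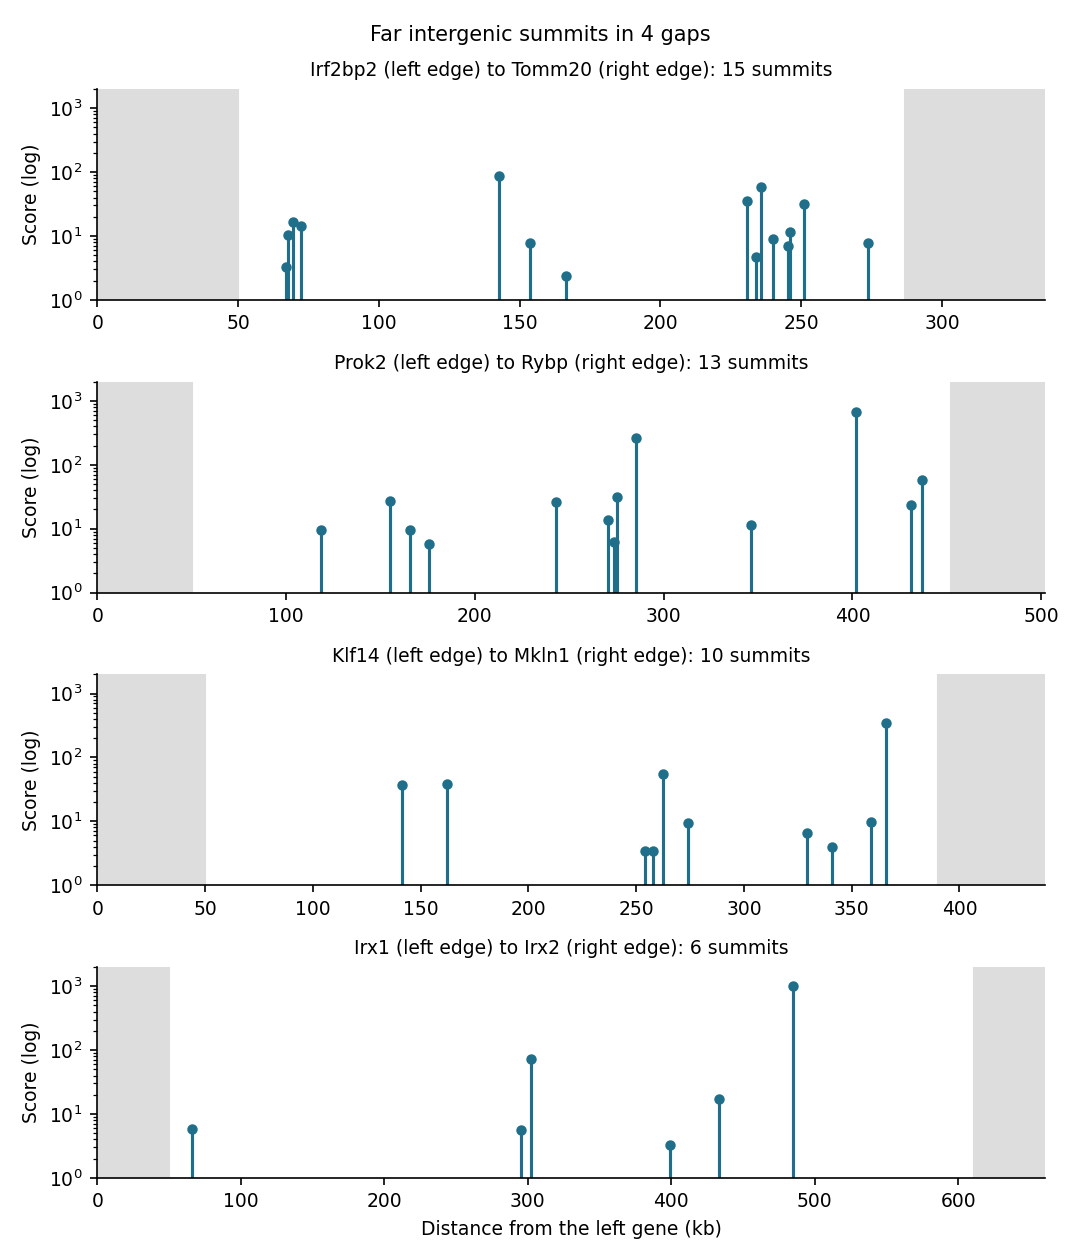
Far intergenic summits in the gaps Irf2bp2 to Tomm20, Prok2 to Rybp, Klf14 to Mkln1 and Irx1 to Irx2, by distance from the left gene (kb) and score (log axis). Grey marks the 50 kb beside each gene that the rule leaves out. One or a few tall summits, up to 1009 between Irx1 and Irx2, stand among many under 50.

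Another 8 gaps held 7 members each. Between the transcription factor genes Pax1 and Foxa2 on chromosome 2, all 7 lay on the Foxa2 side, 58.2 to 167 kb from it. Foxa2 encodes a forkhead factor of endoderm and islet cells. The highest of them scored 83.5, and 4 formed a run inside the noncoding gene 9030622O22Rik with scores of 6.89 to 31.7. The gap between Ubl3 and Katnal1 on chromosome 5 had a top score of 176, and the one between the pseudokinase gene Trib1 and 4933412E24Rik on chromosome 15 had 132, with 7 members within 97.8 kb. Lower top scores were found between Fam76b and the sestrin gene Sesn3 on chromosome 9 (44.6), and between Aldh8a1 and the kinase gene Sgk1 on chromosome 10 (40.9). They were lower still between Eipr1 and the neuronal transcription factor gene Myt1l on chromosome 12 (33.2), between Myo16 and the insulin receptor substrate gene Irs2 on chromosome 8 (26.1), and between the transcription factor genes Sall1 and Tox3 on chromosome 8 (24.1). The last is a desert of 1203 kb.

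Among gaps with 5 or 6 members, 3 were chosen for description after their values were seen. Irx1 and Irx2 flanked 6, with scores of 1009, 71.7, 17.1, 5.90, 5.69 and 3.27. On chromosome 12 the 1211 kb between Id2, which encodes an inhibitor of basic helix-loop-helix factors, and Rnf144a held 6 with a top score of 36.4. The 1208 kb between Klf4, a Krüppel-like factor gene, and Actl7b on chromosome 4 held 5, with scores of 15.7, 9.07, 8.59, 7.70 and 2.31. In the Klf4 gap no member reached the upper quartile of the class.

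Spacing was next examined against summits of every class. Another summit lay within 10 kb of 177 members, 20.9% (95% Wilson interval 18.3% to 23.7%). The share was 24.8% (22.5% to 27.3%) for near intergenic and 21.1% (20.2% to 22.1%) for all placed summits. Within 50 kb it was 46.2% for members (42.9% to 49.6%) and 58.6% for near intergenic summits (55.8% to 61.3%). Counting members alone, 161 had another member within 10 kb, and 11 runs of 3 or more members with steps of at most 10 kb held 39 of the 848.

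Far intergenic summits often lay in noncoding genes, mostly long noncoding RNA genes. Such a body, over 1 kb from its ends, contained 201 members, 23.7% (95% Wilson interval 21.0% to 26.7%), while these bodies made up 11.6% of far territory. The density was 1.87 per Mb inside them and 0.791 per Mb outside. Inside and outside were not matched for distance from protein-coding genes, with which density fell, and the part of that distance was not tested. The median score was 14.3 outside them and 15.02 inside. The most members were in Gm31718 (8) and 2210408F21Rik (6), both described above, and in Gm26843 (5, chromosome 8, top score 232). The noncoding gene 2610035D17Rik, in the gap on one side of Sox9 on chromosome 11, held 4 with a top score of 65.7. Leaving out all noncoding bodies left 647 members, and the density relative to the whole span was then 0.280.

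The sides of genes that face a gap were then examined, since the rule removed every summit near them from the class. A summit lay within 1 kb of 4.21% of the 5532 gene boundaries that face a gap with far territory. Strand was known for part of them. Where a gene's start faced a gap with a member, 48 of 361 starts, 13.3% (95% Wilson interval 10.2% to 17.2%), had such a summit, against 129 of 1941 starts, 6.65% (5.62% to 7.84%), where the gap had no member. The shares were 14.1% and 6.79% for gaps under 500 kb, and 12.2% and 5.98% for longer gaps. Gene ends facing a gap had few, 5 of 345 with a member in the gap and 8 of 1635 without. The orientation of the nearer gene was mixed. For 330 of 651 with known strand, 50.7% (46.9% to 54.5%), the nearer boundary was a start. Among boundaries with known strand, starts made up 51.1% of those facing a gap with a member. They made up 53.8% of those facing any gap with far territory. The gaps with and without a member were not matched for the number of summits around them.

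Gene lists show which kinds of genes flank a gap with a member. Of all 21631 protein-coding genes 4.06% did, and of the 4504 that flank any far territory 19.5% did. Of 38 developmental transcription factor genes 17 did (44.7%), and 37 flank far territory. Beside the Irx genes, the highest members flanked Sox5 (198, at 163 kb), Foxp1 (176, at 55.5 kb) and Pax3 (74.5, at 426 kb), all genes of transcription factors in development. Of 17 cadherin and protocadherin genes, which encode cell adhesion molecules, 7 did (41.2%) and 16 flank far territory. Their highest scores lay at or below the class median of 14.4. Members of 14.2 lay 2580 kb from Pcdh7 and 1800 kb from Cdh7, and 1 of 13.6 lay 134 kb from Pcdh17. A summit of 13.3 lay between Cdh8, at 1058 kb, and Cdh11, at 2156 kb. Genes of a list that flank the same gap count for the same summits, as Irx1 and Irx2 do. Longer gaps more often held a member, and the lists were not matched to other genes for gap length. They were chosen with earlier results of these data known.

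Among islet genes, 3 of 12 alpha cell genes, 2 of 12 beta cell genes and 3 of 14 endocrine transcription factor genes flanked a gap with a member, where 6, 6 and 7 flank far territory. The alpha cell genes were Irx1, Irx2 and Sphkap, which encodes a kinase-anchoring protein and had a summit of 48.0 at 97.1 kb. Slc30a8, the zinc transporter gene of insulin granules, had 3 members, with scores of 96.1 (134 kb away), 6.41 and 4.45. Nkx6-1, a beta cell homeobox gene, had 2, at most 8.98. Isl1, a LIM homeobox gene of islet cells, was the right flank of a gap with a summit of 254 at 115346865 of chromosome 13. That summit lay 951 kb from Isl1 and 245 kb from the integrin gene Itga1. Foxa2 had the 7 members above, and Pax6, a homeobox gene of islets and eye, had 1 with a score of 9.07 at 154 kb.

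In the KLF family 5 of 17 genes flanked a gap with a member and 9 flank far territory. Klf14 had the summit of 352, at 366 kb from Klf14 but 73.9 kb from Mkln1. Klf6 had members of 68.0 and 50.5, Klf12 1 of 32.0, Klf4 the 5 above and Klf7 1 of 2.90. None of the 12 liver and muscle genes flanks far territory, so a member beside them was not possible. The lists share Irx1 and Irx2, and differences between lists were not tested.

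Chromosomes differed in how many members they held. Chromosome 8 had the most, 80, and chromosome 19 the fewest, 9. Density in far territory was 0.283 per Mb on chromosome 14 (14 members) and 0.224 per Mb on the X chromosome (17 members), against 0.666 to 1.61 (median 0.906) on the 18 other autosomes. Those chromosomes were also low over all summits, at 0.610 and 0.363 per Mb. Far density was below the density of the whole chromosome on 20 of 20 chromosomes. On the X chromosome 27.4% of summits were far intergenic (95% Wilson interval 17.9% to 39.6%), and on chromosome 19 3.93% (2.08% to 7.30%).

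**Figure D5:**
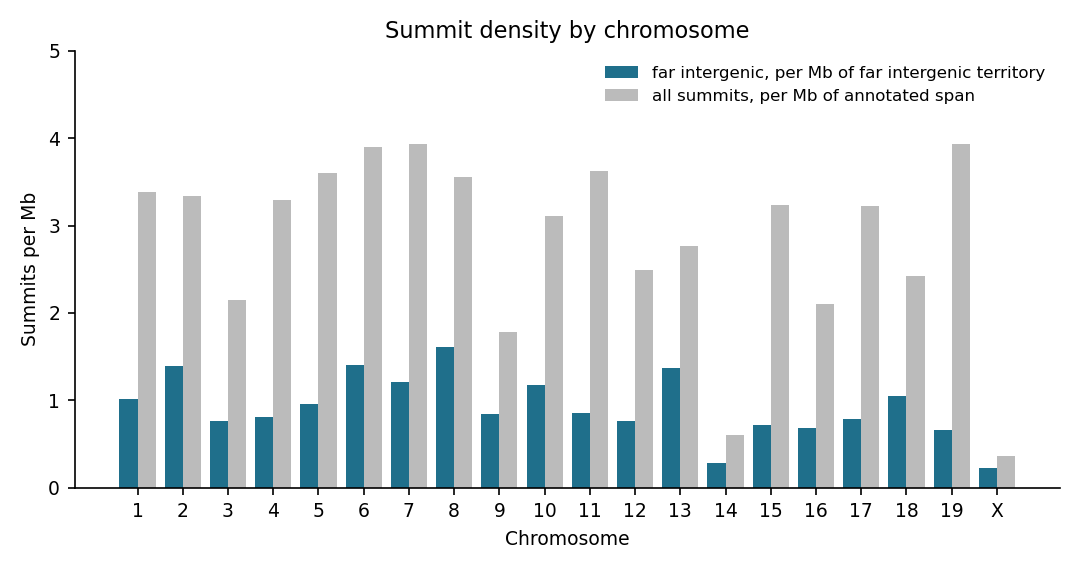
Far intergenic summits per Mb of far intergenic territory (blue) and all summits per Mb of annotated span (grey), by chromosome. Blue lies below grey on every chromosome, and both are lowest on chromosome 14 and the X chromosome.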

How the data were processed

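The deposited file is 1 list of peak summits. Its values are taken as −log10 q-values, which is how MACS2 writes summit files, and are the authors' own. All were above 2, the −log10 of a q-value of 0.01. MACS2 is named as the peak caller in the design text of the labels. FastQC, Bowtie2, MACS2 and the build mm10 are named in the submitters' processing notes, without versions. Handling of duplicates and pooling of replicates are not given in the sources used here.

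Summits were placed at start + 1 and compared with RefSeq's GRCm38.p6 gene table (mm10 is GRCm38), with 21631 protein-coding and 27923 other genes on chromosomes 1 to 19 and X. Strand came from RefSeq's promoter table, for 17274 protein-coding genes. Territory was counted base by base between the outermost annotated genes. Tested on simulated positions, the classification matched a naive one. No genome sequence was used, so motifs and GC content at summits were not run.

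Genes were named by rule: the 10 highest members, the 10 gaps with most members and ties, the 5 farthest members, and at most 5 flanking genes per list. Some gaps, among them the longest ones, were named outside that rule. The class was set by position alone. The gene lists were chosen with earlier results of these data known, and promoters were chosen for print after their summits were seen. Alternatives covered score, distance, gene set, noncoding bodies, chromosomes, merging and spacing. Python 3.11.15, numpy 2.4.6 and pandas 2.3.3 were used.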

Additional observations from a re-analysis of the deposited data

Results flagged for a closer look

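Unplaced or unlocalized contigs, which no comparison uses, held 4 summits, above a fixed limit of 3 for flagging. No expected number was computed for them. Their scores were 3.48, 9.53, 30.8 and 109.8. Gene distances cannot be given for them, and they were not counted as far intergenic.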

How the results depend on the processing

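No paired analysis was possible because single replicates have no values of their own in the deposited summits, and leaving out a replicate was likewise not possible. Motif and GC alternatives at summits were not run. Of 99 alternative values, 79 stayed within 1.5 times the main value or, for the share with a neighbour, within its Wilson interval. These 79 include the count of 0 for the liver and muscle list, which no setting of score, distance or nearer gene could change. A score minimum of 10 left 562 members, turned the far minus near difference in median score to 0.00852, lowered the share with a summit within 10 kb to 16.0% and left 1 beta cell gene. A distance over 100 kb left 495 members in 279 gaps, with a score difference of -0.0875. Over 200 kb there were 231 members in 139 gaps, with a score difference of -1.42, a relative density of 0.159 and 16.5% with a summit within 10 kb. At that distance 1 beta cell gene, 1 endocrine transcription factor gene, 11 developmental transcription factor genes and 2 KLF genes flanked a member. Outside every gene body 2 KLF genes did. With only the nearer gene counted, 4 cadherin genes did. The share with a neighbour was 2.83% within 1 kb and 46.2% within 50 kb. A narrower rule holds fewer summits by construction, and other causes were not tested. Leaving out the summit between Lrrc4c and Iftap, or chromosomes 14 and X, alternatives chosen after seeing the data, moved none of the 5 values computed by over 1.5 times.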
